A study of Mus musculus with 14 samples.

Results

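The 7 genes described here (Hmgcs1, Idi1, Sqle, Lss, Cyp51, Dhcr7 and Insig1) belong to the cholesterol synthesis pathway or to its sterol feedback. They were picked out by symbol among the 46904 genes of the expression table, with earlier results of these data known. RNA-seq of polyadenylated RNA was performed on brain hemispheres of mice collected 48 h after transient occlusion of the left middle cerebral artery (MCAO). Male wild-type mice (Cort+/+) were compared with male mice lacking the gene for the neuropeptide cortistatin in all cells (Cort-/-, kept on a C57BL/6J background). The study described the occlusion as mild, which in its protocol was a 20 min occlusion in mice of 12 weeks. The 4 groups were the contralateral hemisphere (CL) of Cort+/+ mice (n = 3), the ischemic hemisphere (MCAO) of Cort+/+ mice (n = 3), CL of Cort-/- mice (n = 3) and MCAO of Cort-/- mice (n = 5). The study's methods give 3 CL and 5 MCAO replicates. The Cort+/+ MCAO group here holds 3 libraries, fewer than stated, numbered 2 to 4 in the labels. The study's methods state that replicates which did not group with the others were left out of some comparisons, and the sources do not say whether this touched the Cort+/+ MCAO group, which would bear on its spread. CL tissue came from operated animals, so no group was free of surgery, anaesthesia and analgesic treatment. The libraries were described as independent biological replicates, and the sources do not say which CL and MCAO hemispheres came from the same mouse.

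Values are RPKM, the read count scaled to gene length and library size, as deposited, so levels can be compared between genes. Whole reads could be recovered from the RPKM values, and summed to between 25989679 and 43032304 per library. Cort itself, which checks the genotype labels, had 64 to 139 reads in the Cort+/+ libraries and 0 to 4 in the Cort-/- libraries. The lowest of the Cort+/+ libraries was CL library 1, at 2.61 RPKM against 3.36 to 5.68 RPKM in the others. All 8 neuronal, all 10 oligodendrocyte and all 7 astrocyte marker genes were detected in every group, as the brain label requires.

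Cholesterol is built from acetyl-CoA through mevalonate, isoprenoid units, squalene and lanosterol. The brain makes its own supply, because lipoprotein cholesterol does not cross the intact blood-brain barrier, and oligodendrocytes and astrocytes are known as its main producers. The pathway genes are known targets of the transcription factor SREBP-2 (gene Srebf2), which the escort protein Scap carries out of the endoplasmic reticulum for activation when sterols are scarce, while Insig proteins hold it back when sterols are plentiful. Hmgcs1 makes HMG-CoA, Idi1 isomerizes the isoprenoid unit, Sqle and Lss convert squalene to lanosterol, Cyp51 removes a methyl group from lanosterol, and Dhcr7 catalyses a final reduction to cholesterol. Insig1 is both a target and an inhibitor of this system.

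Promoter windows of 300 bases (250 before to 50 after the annotated start, RefSeq, GRCm39) were given for 6 of the 7 genes, Sqle being the exception. The windows of 4 genes are shown, because 3 of these genes (Hmgcs1, Idi1 and Cyp51) varied together between libraries and Lss did not. Capitals mark 3 motifs searched on both strands, which are the sterol response element TCACNCCAC, the CCAAT box (CCAAT, or ATTGG on the other strand) and the GC box (GGGCGG, or CCGCCC). The windows lie at chr13:120151637-120151936 on the plus strand, chr13:8935392-8935691 on the plus strand, chr5:4154648-4154947 on the minus strand and chr10:76367189-76367488 on the plus strand, in the order of the lines.
Hmgcs1: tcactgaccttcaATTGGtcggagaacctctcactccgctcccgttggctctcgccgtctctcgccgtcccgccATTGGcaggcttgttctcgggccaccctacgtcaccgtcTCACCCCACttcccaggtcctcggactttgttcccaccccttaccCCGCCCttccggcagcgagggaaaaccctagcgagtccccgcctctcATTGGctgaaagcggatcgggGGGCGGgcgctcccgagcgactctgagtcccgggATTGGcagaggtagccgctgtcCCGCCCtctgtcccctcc
Idi1: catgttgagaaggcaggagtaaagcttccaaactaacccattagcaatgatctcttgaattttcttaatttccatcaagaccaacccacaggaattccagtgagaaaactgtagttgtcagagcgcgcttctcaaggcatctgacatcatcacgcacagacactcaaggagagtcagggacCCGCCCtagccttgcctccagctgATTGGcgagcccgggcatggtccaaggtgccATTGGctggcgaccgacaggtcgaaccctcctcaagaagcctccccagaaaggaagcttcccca
Cyp51: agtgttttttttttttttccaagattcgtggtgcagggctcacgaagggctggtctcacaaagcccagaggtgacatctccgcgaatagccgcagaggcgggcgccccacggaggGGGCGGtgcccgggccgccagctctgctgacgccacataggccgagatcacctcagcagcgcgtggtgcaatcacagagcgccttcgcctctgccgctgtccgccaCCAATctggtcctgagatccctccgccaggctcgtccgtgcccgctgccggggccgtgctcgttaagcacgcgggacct
Lss: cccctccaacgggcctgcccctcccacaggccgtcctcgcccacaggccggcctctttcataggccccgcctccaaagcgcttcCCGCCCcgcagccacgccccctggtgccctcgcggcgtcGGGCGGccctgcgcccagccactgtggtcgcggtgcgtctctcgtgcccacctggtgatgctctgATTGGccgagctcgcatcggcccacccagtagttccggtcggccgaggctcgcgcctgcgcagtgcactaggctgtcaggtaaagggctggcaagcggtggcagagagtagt

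Only the Hmgcs1 window held the sterol response element in these letters, from position -137 to -129 relative to the start. This sequence occurred in 1.24% of all 32544 promoter windows in the RefSeq table, and in at least 1 window of 1.43% of its 26742 genes. The CCAAT box was present in 6 of 6 genes, against 41.0% of all genes (37.4% of windows), and the GC box in 6 of 6, against 38.5% of all genes (35.9% of windows). Dhcr7 had 3 annotated windows, and a motif in any window of a gene was counted. Among the 12 other synthesis enzymes with a promoter in the table, 0 held the sterol response element, 10 the CCAAT box and 11 the GC box. A match in letters is a description of the sequence and does not show binding.

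The 7 genes were expressed in all 14 libraries, so none was lost to the filter on low values. Mean levels over the 14 libraries were 57.4 RPKM for Hmgcs1, 23.5 for Insig1, 20.0 for Sqle, 14.1 for Cyp51, 9.60 for Dhcr7, 7.23 for Lss and 3.01 for Idi1. Each gene exceeded the next in this order in 14 of 14 libraries. Per length, Hmgcs1 was 19.0 times as abundant as Idi1. Hmgcs1 and Idi1 also bracketed the other enzymes, whose means ran from 4.05 RPKM for Lbr to 32.4 RPKM for Msmo1. In reads, Idi1 had 242 to 493 per library and Hmgcs1 had 5206 to 9227.

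**Figure D1:**
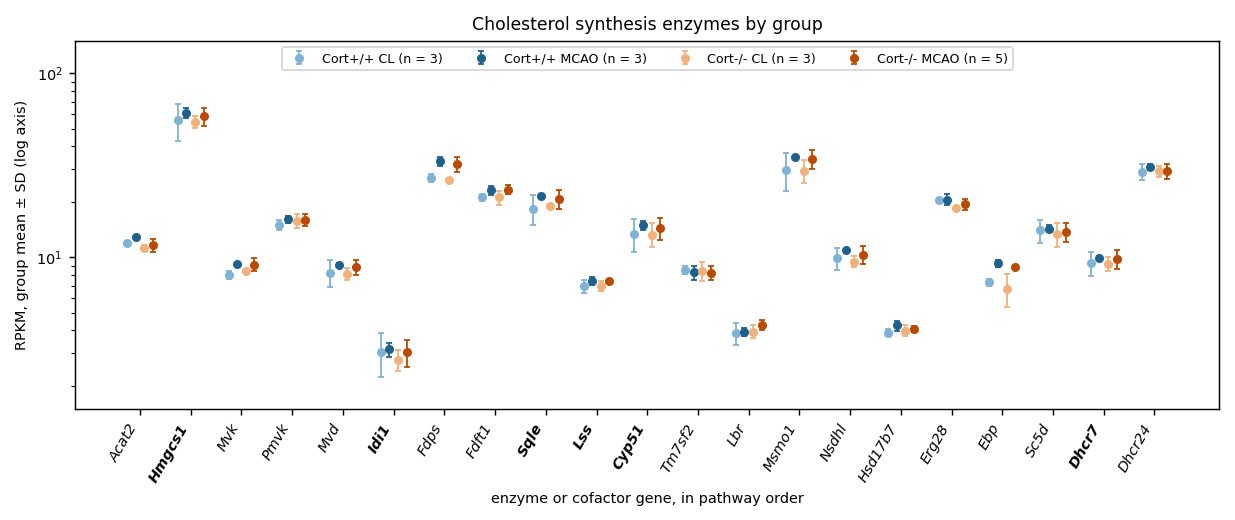
Group mean RPKM ± SD (log axis) of synthesis enzymes in pathway order from left to right, with the 4 groups as colours (n = 3, 3, 3 and 5) and the enzymes of the report in bold. Levels differ far more between genes than between groups, with Hmgcs1 highest and Idi1 lowest.

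The first comparison asked whether ischemia changed these genes within each genotype. None of the 7 passed the test in either genotype. The test was limma on log2(RPKM + 0.1) with Benjamini-Hochberg adjustment over 46102 genes at a threshold of 0.05, and log2 differences below are on this scale. In Cort+/+ mice 0 of 7 genes were called, where 0.0108% of all genes tested were called (5 genes), and 0 of 7 had an unadjusted p under 0.05, against 7.87% of all genes. In Cort-/- mice 0 of 7 were called, where 1.72% of all genes were called (792 genes), and 0 of 7 had an unadjusted p under 0.05, against 12.7% of all genes. With both genotypes averaged, 0 of 7 were called, where 3.43% of all genes were called (1579 genes). Sqle was the 1 gene of the 7 with an unadjusted p under 0.05 in this average, a share no higher than the 14.9% of all genes.

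Hmgcs1 read 41.2, 61.1 and 63.8 RPKM in Cort+/+ CL, 57.9, 59.4 and 65.03 in Cort+/+ MCAO, 54.4, 50.4 and 58.5 in Cort-/- CL and 60.9, 55.9, 67.3, 49.1 and 58.5 in Cort-/- MCAO. Cort+/+ CL library 1 was the lowest of all 14, and MCAO and CL values overlapped in both genotypes. MCAO vs. CL gave a log2 difference of 0.16 (95% interval -0.15 to 0.47) in Cort+/+ and 0.095 (-0.19 to 0.38) in Cort-/- mice. Idi1 read 2.16, 3.76 and 3.23 RPKM in Cort+/+ CL, 3.02, 2.97 and 3.46 in Cort+/+ MCAO, 2.84, 2.38 and 3.09 in Cort-/- CL and 3.67, 2.90, 3.17, 2.28 and 3.26 in Cort-/- MCAO. Here too the groups overlapped, with the highest and the lowest value of the 14 both in Cort+/+ CL. In log2, MCAO minus CL was 0.079 (95% interval -0.34 to 0.49) in Cort+/+ and 0.13 (-0.24 to 0.50) in Cort-/- mice. The SD of Idi1 in Cort+/+ CL was 26.8% of its mean, against 5.43% that counting of its reads alone would give.

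Sqle and Lss act in succession on squalene. Sqle read 14.9, 21.7 and 18.6 RPKM in Cort+/+ CL, 20.9, 21.7 and 21.9 in Cort+/+ MCAO, 19.3, 18.6 and 19.2 in Cort-/- CL and 23.99, 20.3, 21.5, 17.4 and 20.4 in Cort-/- MCAO. Cort+/+ CL spanned a wider range than Cort+/+ MCAO, whose 3 values lay close together, and 1 of the CL values lay inside the MCAO range. MCAO vs. CL gave a log2 difference of 0.24 (95% interval -0.018 to 0.50) in Cort+/+ and 0.12 (-0.11 to 0.35) in Cort-/- mice. Averaged over genotypes, Sqle was 0.18 higher in MCAO on the log2 scale (0.0054 to 0.35), with an adjusted p of 0.318 by limma. Lss read 7.58, 6.76 and 6.47 RPKM in Cort+/+ CL, 7.01, 7.72 and 7.59 in Cort+/+ MCAO, 6.75, 7.49 and 6.79 in Cort-/- CL and 7.30, 7.57, 7.37, 7.53 and 7.32 in Cort-/- MCAO. Lss varied least, with a highest value 1.19 times the lowest. In log2, MCAO minus CL was 0.10 (95% interval -0.040 to 0.24) in Cort+/+ and 0.082 (-0.044 to 0.21) in Cort-/- mice. Its average over genotypes was 0.092 (-0.0028 to 0.19, limma adjusted p = 0.357).

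Cyp51 and Dhcr7 act after lanosterol. Cyp51 read 10.5, 15.9 and 13.6 RPKM in Cort+/+ CL, 15.9, 14.5 and 14.3 in Cort+/+ MCAO, 13.5, 11.2 and 15.1 in Cort-/- CL and 15.8, 14.02, 14.8, 11.3 and 16.3 in Cort-/- MCAO. Low and high libraries were found on both sides of the comparison, and the groups overlapped. MCAO vs. CL gave a log2 difference of 0.18 (95% interval -0.17 to 0.52) in Cort+/+ and 0.12 (-0.19 to 0.42) in Cort-/- mice. Dhcr7 read 7.81, 10.6 and 9.51 RPKM in Cort+/+ CL, 9.90, 9.86 and 10.1 in Cort+/+ MCAO, 9.31, 8.41 and 9.97 in Cort-/- CL and 10.2, 9.47, 10.8, 7.93 and 10.6 in Cort-/- MCAO. The 3 Cort+/+ MCAO values differed by little, and lay within the CL range. In log2, MCAO minus CL was 0.11 (95% interval -0.15 to 0.37) in Cort+/+ and 0.078 (-0.15 to 0.31) in Cort-/- mice.

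Insig1, the feedback inhibitor, differed least between hemispheres. Insig1 read 21.9, 24.2 and 23.8 RPKM in Cort+/+ CL, 22.04, 25.2 and 23.95 in Cort+/+ MCAO, 22.7, 24.2 and 23.2 in Cort-/- CL and 27.02, 22.7, 24.6, 22.3 and 21.7 in Cort-/- MCAO. The Cort-/- MCAO group held both the highest and the lowest of the 14 values. MCAO vs. CL gave a log2 difference of 0.026 (95% interval -0.14 to 0.20) in Cort+/+ and 0.014 (-0.14 to 0.17) in Cort-/- mice. Its interval averaged over genotypes, -0.093 to 0.13, was the narrowest after that of Lss among the 7 genes.

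**Figure D2:**
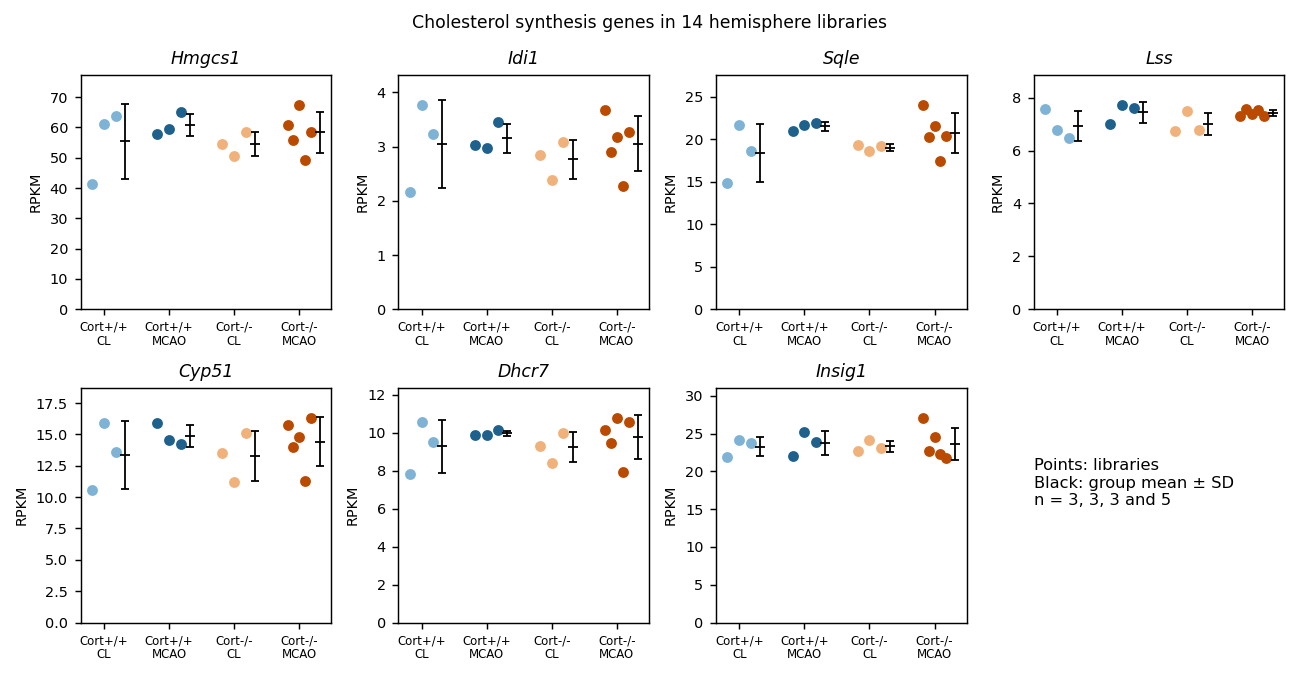
RPKM of each of the 7 genes in every library (points) by group, with the group mean ± SD in black (n = 3, 3, 3 and 5) and axes starting at 0. MCAO and CL overlap for every gene in each genotype, and Cort+/+ CL library 1 is the lowest of the 14 for Hmgcs1, Idi1, Sqle, Cyp51 and Dhcr7.

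All 7 estimates of MCAO vs. CL were above 0 in Cort+/+ (median 0.11), in Cort-/- (median 0.09) and averaged over genotypes (median 0.10), while the median over all genes tested was 0.00012 for the average. In Cort+/+ this direction rested on 1 library. Without Cort+/+ CL library 1, Hmgcs1 was at -0.04, Idi1 at -0.14, Dhcr7 at -0.0095 and Insig1 at -0.02, while Sqle was at 0.10, Cyp51 at 0.02 and Lss at 0.17. Averaged over genotypes, the median of the 7 was then 0.034 instead of 0.10, with Idi1 at -0.0068 and Insig1 at -0.0021. Over the 7 genes, the lowest and the highest bound of the 95% intervals averaged over genotypes were -0.17 and 0.38, or fold changes of 0.886 and 1.30. In whole hemispheres, fewer cells of a type and less RNA per cell cannot be told apart.

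The second comparison asked whether cortistatin deficiency changed the genes within a hemisphere, and no gene passed the test. In CL, 0 of 7 were called, against 0.0152% of all genes (7 genes), and 0 of 7 had an unadjusted p under 0.05, against 3.91% of all genes. Estimates for Cort-/- vs. Cort+/+ in CL ran from -0.11 for Idi1 (-0.52 to 0.31) to 0.064 for Sqle (-0.20 to 0.32). Hmgcs1 averaged 55.4 ± 12.3 RPKM (SD, n = 3) in Cort+/+ CL and 54.4 ± 4.02 (SD, n = 3) in Cort-/- CL, a log2 difference of -0.00080 (-0.31 to 0.31). Cort+/+ CL library 1 moved these values. Without it Idi1 was at -0.33, Hmgcs1 at -0.20 and Sqle at -0.078, and the median of the 7 went from 0.0014 to -0.12, with 0 of 7 called. In MCAO, 0 of 7 were called, against 0.0174% of all genes (8 genes), and 0 of 7 had an unadjusted p under 0.05, against 3.82% of all genes. All 7 MCAO estimates were below 0 and small, from -0.066 for Hmgcs1 (-0.35 to 0.22) to -0.0024 for Lss (-0.13 to 0.12). When values were rescaled to TPM, 4 of them changed sign. The shared sign also rested on 1 library. Without Cort-/- MCAO library 4 the median of the 7 went from -0.056 to 0.014, with 0 of 7 called. Sqle was then at 0.0010, Idi1 at 0.040, Cyp51 at 0.029 and Dhcr7 at 0.038, while Hmgcs1 was at -0.0053.

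The third comparison asked whether the response to ischemia differed between genotypes. It was tested as an interaction, and 0 of 7 genes were called, against 0.00217% of all genes (1 gene). An unadjusted p under 0.05 was reached by 0 of 7, against 3.31% of all genes. The difference in response, Cort-/- minus Cort+/+, was -0.12 for Sqle (-0.47 to 0.22), the largest in size, and 0.051 for Idi1 (-0.51 to 0.61), the widest interval. For Lss it was -0.020 (-0.21 to 0.17) and for Insig1 -0.012 (-0.24 to 0.22). The limma adjusted p was 1.00 for each of the 7. Without Cort+/+ CL library 1 the median of the 7 went from -0.032 to 0.087, with Sqle at 0.019 and Idi1 at 0.27, and 0 of 7 were called. Without Cort-/- MCAO library 4 that median was 0.0087, again with 0 of 7 called.

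**Figure D3:**
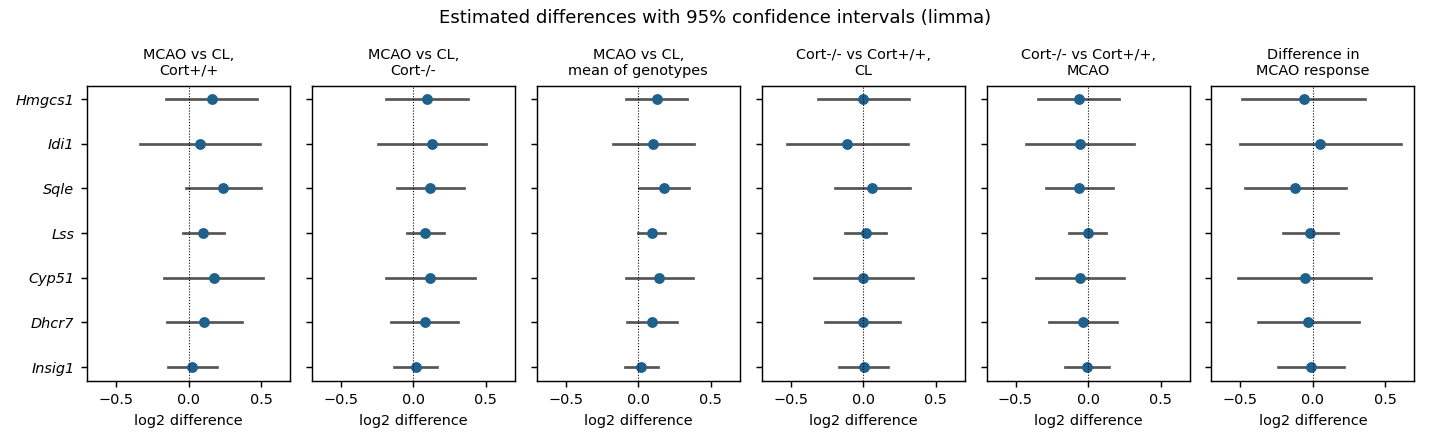
Log2 differences (points) with 95% confidence intervals (lines) from limma for the 7 genes in 6 comparisons, each panel sharing the same axis. Every interval includes 0 except that of Sqle for MCAO vs. CL averaged over genotypes, and the Idi1 intervals are the widest.

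Libraries of the same group differed from each other, and 5 of the 7 genes shared these differences. Taking each library's log2 value minus its group mean, Hmgcs1, Idi1, Sqle, Cyp51 and Dhcr7 deviated together. Pearson's r over the 14 libraries lay between 0.76 and 0.94 for the 10 pairs of these 5 genes. The group of 5 was not set beforehand and leaves out Lss and Insig1, so a high r within it follows in part from that choice. The mean deviation of the 5 was -0.34 in Cort+/+ CL library 1 and -0.30 in Cort-/- MCAO library 4, the lowest, and 0.24 in Cort+/+ CL library 2, the highest. The 10 values ran from 0.62 to 0.91 without Cort+/+ CL library 1, and from 0.24 to 0.83 without both low libraries, a check added after seeing the data. The 5 genes share each library's RNA preparation and scaling, so these values are given as a description without a test.

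Insig1 followed them in part, with r between 0.25 and 0.70 to the 5 genes, between 0.07 and 0.68 without Cort+/+ CL library 1, and between -0.21 and 0.69 without both low libraries. Lss ran the other way, with r between -0.73 and -0.50, and its promoter window also carried a CCAAT box and GC boxes. The Lss values lay between -0.56 and -0.07 without Cort+/+ CL library 1, and between -0.64 and 0.05 without both low libraries. Lss spread little, deviating by 0.13 at most, in Cort+/+ CL library 1, where the other 6 genes lay below their group means. Reads numbered 36451740 in Cort+/+ CL library 1 and 40641389 in Cort-/- MCAO library 4, and the cause of their low values was not tested.

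**Figure D4:**
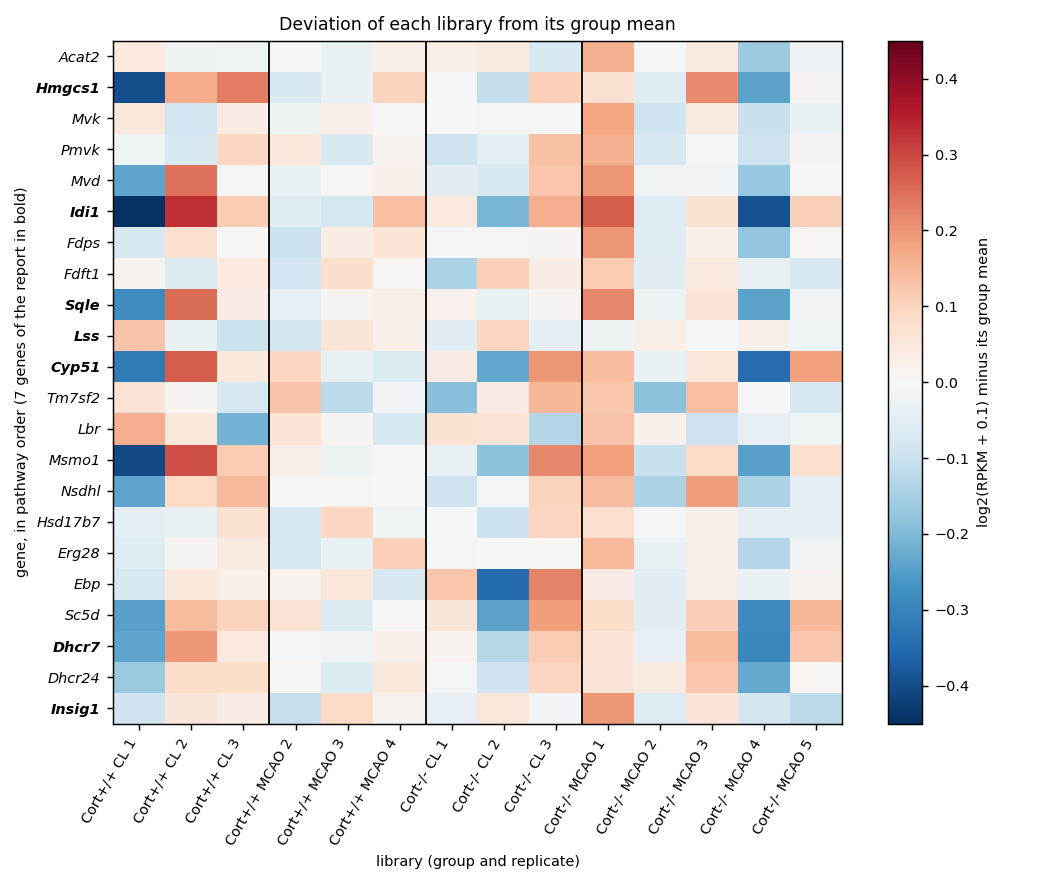
Deviation of each library (columns, by group) from its group mean in log2(RPKM + 0.1) for synthesis enzymes in pathway order and Insig1 (rows, the 7 genes of the report in bold). Red is above and blue below the group mean, and the columns of Cort+/+ CL library 1 and Cort-/- MCAO library 4 are blue for Hmgcs1, Idi1, Sqle, Cyp51 and Dhcr7 while Lss is near white or pale red there.

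Of the 15056 genes averaging 1 RPKM or more, the pattern most like the mean of the 7 was that of Msmo1 (r = 0.95), a sterol methyl oxidase that acts after Cyp51. It was followed by Ube2n (0.94), Zdhhc23 (0.94), Zfp935 (0.93), Gm49331 (0.93), Srsf3 (0.93), Col27a1 (0.93), Gm5124 (0.92), Gm49359 (0.92) and Mvd (0.92), a mevalonate pathway enzyme. An r of at least 0.8 was reached by 6 of the 16 other synthesis enzymes and by 1.28% of all genes ranked (192 genes). Without Cort+/+ CL library 1 it was reached by 5 of 16 and by 0.717%, and without both low libraries by 2 of 16 and by 0.166%, while Msmo1 was then at r = 0.90. Srebf2 had r = 0.83, whereas Srebf1 had r = -0.65 and Scap r = -0.74. Without both low libraries these were 0.41, -0.29 and -0.62. Over lists, the mean of the other enzymes had r = 0.91 and that of the fatty acid synthesis genes r = 0.78. Averaged over their lists, oligodendrocyte markers had r = 0.50, astrocyte markers r = -0.61 and endothelial markers r = -0.63. Without Cort+/+ CL library 1 these were 0.52, -0.37 and -0.65, and their part in the pattern was not tested. In Cort-/- MCAO library 4 the endothelial markers averaged 0.32 above their group mean, their largest deviation, where the 7 genes averaged -0.22. None of the values over lists, including that of the fatty acid synthesis genes, was computed without both low libraries.

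The 16 other enzymes of the pathway were examined in the same fit, to place the 7 genes. In Cort+/+ and in Cort-/- mice 0 of 16 were called for MCAO vs. CL (3 at an unadjusted p under 0.05 in each, against 7.87% and 12.7% of all genes). Averaged over genotypes, 2 of 16 rose and 0 fell, where 3.43% of all genes were called. In this average 5 of 16 had an unadjusted limma p under 0.05, against 14.9% of all genes. Estimates were above 0 for 15 of 16 in Cort+/+, in Cort-/- and in the average. The median of the 16 in the average was 0.08, against 0.10 for the 7 genes. Fdps read 25.6, 28.3 and 26.9 RPKM in Cort+/+ CL, 30.96, 33.95 and 34.6 in Cort+/+ MCAO, 26.03, 26.1 and 26.4 in Cort-/- CL and 36.8, 30.8, 32.6, 28.3 and 32.3 in Cort-/- MCAO. Fdps makes farnesyl diphosphate, and its MCAO values lay above all CL values in both genotypes. It rose by 0.29 (0.18 to 0.41, limma adjusted p = 0.00816). Ebp read 6.97, 7.58 and 7.44 RPKM in Cort+/+ CL, 9.35, 9.58 and 8.80 in Cort+/+ MCAO, 7.24, 5.19 and 7.76 in Cort-/- CL and 9.12, 8.58, 9.08, 8.71 and 8.98 in Cort-/- MCAO. Ebp, a sterol isomerase, also separated MCAO from CL in both genotypes and rose by 0.37 (0.21 to 0.53, limma adjusted p = 0.0143). Within Cort-/- mice both just missed the threshold, at an adjusted p of 0.0580 for Fdps and 0.0535 for Ebp by limma, and both were called with limma voom on the recovered reads (0.0219 and 0.0174). The share of all genes whose MCAO and CL values do not overlap was not computed.

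In every response 0 of the 14 sterol sensing and uptake genes fell. Averaged over genotypes and in Cort-/- mice 1 of them rose, where 3.43% and 1.72% of all genes were called. That gene was Npc2, which hands cholesterol out of lysosomes. Npc2 read 16.1, 14.99 and 15.5 RPKM in Cort+/+ CL, 19.97, 20.8 and 18.6 in Cort+/+ MCAO, 15.1, 15.5 and 14.7 in Cort-/- CL and 25.3, 19.2, 17.7, 21.7 and 20.1 in Cort-/- MCAO. Its MCAO values lay above all CL values, and the share of all genes separated in this way was not computed. Npc2 rose by 0.40 (0.25 to 0.54, limma adjusted p = 0.00650) for the average and by 0.45 (0.26 to 0.64, limma adjusted p = 0.0271) in Cort-/- mice. The Cort-/- call was lost when only these 2 groups were fitted (adjusted p = 0.126) and without any 1 CL library or MCAO library 4 or 5 of Cort-/- mice, at adjusted p-values of 0.0530 to 0.113. Srebf2 was at -0.0055 (-0.14 to 0.13, limma adjusted p = 0.988) and Insig2, the second Insig protein, at 0.029 (-0.044 to 0.10, limma adjusted p = 0.773).

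Some markers of other cell types also rose in MCAO, as Fdps, Ebp and Npc2 did. Of 8 microglia and macrophage markers, 7 rose averaged over genotypes, where 3.43% of all genes were called. In Cort-/- mice 6 of 8 rose, against 1.72% of all genes called. In Cort+/+ mice 0 of 8 were called, against 0.0108% of all genes. There 7 of 8 had an unadjusted limma p under 0.05, against 7.87% of all genes. Their median difference in Cort+/+ mice was 0.78, so differences of this size went uncalled. The summed level of the 8 markers was 135 to 168 RPKM in Cort+/+ CL, 194 to 346 in Cort+/+ MCAO, 140 to 173 in Cort-/- CL and 231 to 415 in Cort-/- MCAO, with no marker at 0. Of 7 astrocyte markers 3 rose, with sums of 794 to 963, 879 to 1042, 790 to 887 and 859 to 1049 RPKM in the same order. Averaged over genotypes, their differences were above 0 for 4 and below 0 for 3, from -0.17 to 1.84 with a median of 0.022. Gfap alone ran from 37.9 RPKM in Cort+/+ CL library 3 to 361 RPKM in Cort-/- MCAO library 1. Of 10 oligodendrocyte markers 0 passed the test, with sums of 1309 to 1372, 1081 to 1313, 1070 to 1307 and 1079 to 1244 RPKM. The part of these markers in the changes of Fdps, Ebp and Npc2 was not tested.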

How the data were processed

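RNA-seq of 14 hemisphere libraries was analysed. The authors used the reanalyzerGSE pipeline with the GRCm39 mouse genome and GENCODE annotation, dropped genes at 0 in all but 1 sample, and deposited RPKM values for 46904 genes; how they scaled libraries before RPKM was not given in the sources used here. Whole reads were recovered from the RPKM steps (100.0% of 495656 values above 0, within 0.01 read), giving 25989679 to 43032304 reads per library. Groups came from the sample titles. Of 46904 genes, 46102 were above 0 in at least 2 libraries and were fitted with limma 3.58.1 (R 4.3.3) on log2(RPKM + 0.1), with 1 model of the 4 groups, a trended prior and Benjamini-Hochberg adjustment at 0.05. Averages over genotypes and the interaction were contrasts of this model. The code was tested on simulated data. No 2 libraries of a group were copies of each other, with a chi-square per degree of freedom of 5.21 to 23.0 over 19 pairs.

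The 7 genes and the lists (other synthesis enzymes, sterol sensing and uptake, fatty acid synthesis, turnover and efflux, and cell type markers) were chosen with earlier results of these data known. Listed genes past the threshold were named, with Srebf2 and Insig2 in any case (other genes of this rule are not reported here), and the 10 genes most like the mean of the 7 by Pearson's r after centring on group means. Pseudocount, filter, scaling, model, weights, block and left-out libraries were varied. Depth limits only the counting part of the error.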

Additional observations from a re-analysis of the deposited data

How the results depend on the processing

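The count of 0 of the 7 genes called held under every alternative run, in all 6 comparisons except that fitting only the groups compared gave 4 of them (not the average over genotypes or the difference in response): pseudocounts of 1 and 0.01, no filter on low values, a filter at a mean of 0.5 RPKM, rescaling to TPM, median-of-ratios scaling, quantile normalization, library weights, only the groups compared, limma voom on recovered reads, the replicate block, and leaving out each library in turn. Of 1036 log2 differences of the 7 genes over these alternatives, 80 changed sign, none of them called, and the cause was not tested. With values rescaled to TPM, the sign turned for Srebf2 at 0.023 for MCAO vs. CL averaged over genotypes and Hmgcs1 at 0.059, Dhcr7 at 0.056 for Cort-/- vs. Cort+/+ in CL and Cyp51 at 0.00021, Dhcr7 at 0.022, Lss at 0.054, Insig1 at 0.050 for Cort-/- vs. Cort+/+ in MCAO. With median-of-ratios scaling, the sign turned for Cyp51 at -0.0019 for Cort-/- vs. Cort+/+ in CL and Lss at 0.0033 for Cort-/- vs. Cort+/+ in MCAO. With quantile normalization, the sign turned for Srebf2 at 0.020 for MCAO vs. CL averaged over genotypes and Cyp51 at -0.0096, Insig1 at -0.0037 for Cort-/- vs. Cort+/+ in CL and Lss at 0.0055 for Cort-/- vs. Cort+/+ in MCAO. With library weights, the sign turned for Cyp51 at -0.0020, Insig1 at -0.010 for Cort-/- vs. Cort+/+ in CL and Lss at 0.0025 for Cort-/- vs. Cort+/+ in MCAO and Insig1 at 0.00050 for the difference in response. With limma voom on recovered reads, the sign turned for Srebf2 at 0.042 for MCAO vs. CL averaged over genotypes and Lss at 0.020, Insig1 at 0.012 for Cort-/- vs. Cort+/+ in MCAO and Insig1 at 0.0055 for the difference in response. Leaving out 1 library at a time changed the sign of other small differences. For MCAO vs. CL in Cort+/+, they ranged from -0.040 to 0.27 for Hmgcs1, -0.14 to 0.24 for Idi1, -0.0095 to 0.21 for Dhcr7, -0.019 to 0.078 for Insig1. For MCAO vs. CL in Cort-/-, they ranged from -0.035 to 0.043 for Insig1. For MCAO vs. CL averaged over genotypes, they ranged from -0.0068 to 0.19 for Idi1, -0.0043 to 0.046 for Insig1, -0.060 to 0.032 for Srebf2. For Cort-/- vs. Cort+/+ in CL, they ranged from -0.078 to 0.19 for Sqle, -0.16 to 0.14 for Cyp51, -0.040 to 0.033 for Insig1, -0.20 to 0.11 for Hmgcs1, -0.33 to 0.056 for Idi1, -0.12 to 0.095 for Dhcr7, -0.031 to 0.082 for Lss. For Cort-/- vs. Cort+/+ in MCAO, they ranged from -0.044 to 0.024 for Lss, -0.058 to 0.037 for Insig1, -0.13 to 0.040 for Idi1, -0.11 to 0.0010 for Sqle, -0.10 to 0.029 for Cyp51, -0.071 to 0.038 for Dhcr7. For the difference in response, they ranged from -0.18 to 0.13 for Hmgcs1, -0.25 to 0.019 for Sqle, -0.19 to 0.10 for Cyp51, -0.13 to 0.087 for Dhcr7, -0.063 to 0.033 for Insig1, -0.11 to 0.27 for Idi1, -0.084 to 0.029 for Lss.

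Replicate numbers in the labels were used as a replicate block (genotype and number), with a consensus correlation of -0.00451. Same-numbered CL and MCAO libraries did not deviate together throughout. Their correlations over 15063 genes were 0.32 (the highest Cort+/+ pair) and -0.14 in Cort+/+ and -0.06, -0.24 and 0.03 in Cort-/- mice. Pairs of unlike number ran from -0.32 for CL library 3 with MCAO library 4 to 0.40 for CL library 3 with MCAO library 5, both in Cort-/- mice. In Cort+/+ mice, CL library 1 with MCAO library 3 and CL library 3 with MCAO library 4 were each at 0.27. The remaining Cort+/+ pairs of unlike number were negative. The numbers were therefore not taken as pairs, and pairing under other numbers was not tested. The main fit treats all hemispheres as independent. With the block, 784 genes were called for MCAO vs. CL in Cort-/- and 5 in Cort+/+ mice, and 0 of the 7. At a consensus correlation of -0.00451 the block could hardly change the fit. It therefore cannot show how true pairing would bear on these counts.

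Counts of all genes called depended on the alternative, from 2 to 159 for MCAO vs. CL in Cort+/+, 86 to 1415 in Cort-/-, 929 to 2180 averaged over genotypes, 4 to 90 for genotype in CL, 4 to 40 for genotype in MCAO and 0 to 18 for the difference in response. Groups of 3 limit what can be seen, since the interval of Idi1 for the difference in response ran from -0.51 to 0.61. Where a group keeps 2 libraries, its spread is taken from the other groups.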

Other observations

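Genes of cholesterol turnover and of fatty acid synthesis, which surround the pathway, were tested in the same fit. Averaged over genotypes, 2 of 11 turnover and efflux genes rose and 1 fell, where 3.43% of all genes were called. Cyp46a1 read 90.9, 85.3 and 96.5 RPKM in Cort+/+ CL, 78.5, 70.7 and 80.4 in Cort+/+ MCAO, 89.2, 90.8 and 90.2 in Cort-/- CL and 67.3, 75.3, 80.97, 74.6 and 72.1 in Cort-/- MCAO. Cyp46a1, the neuronal hydroxylase through which the brain disposes of cholesterol, was lower in every MCAO than in every CL library of its genotype. The share of all genes separated in this way was not computed. Averaged over genotypes, Cyp46a1 was at -0.27 (-0.37 to -0.17, limma adjusted p = 0.00712). In Cort-/- mice it was at -0.29 (-0.42 to -0.15, limma adjusted p = 0.0368), a call lost when only these 2 groups were fitted (adjusted p = 0.0845) and without 1 of several libraries, at adjusted p-values of up to 0.130. Ch25h read 0.854, 0.354 and 0.135 RPKM in Cort+/+ CL, 1.86, 4.08 and 0.885 in Cort+/+ MCAO, 1.00, 0.802 and 0.891 in Cort-/- CL and 3.31, 2.70, 1.36, 2.94 and 3.91 in Cort-/- MCAO. Ch25h, which makes an oxysterol that restrains SREBP activation, rose by 1.80 (1.02 to 2.58, limma adjusted p = 0.0156). It is a gene of few reads, with 7 in its lowest library and 231 in its highest, and the difference was 1.03 with a pseudocount of 1 and 2.11 with limma voom on recovered reads, both called. Lcat read 11.2, 13.4 and 11.7 RPKM in Cort+/+ CL, 18.6, 15.8 and 13.9 in Cort+/+ MCAO, 12.4, 11.05 and 12.1 in Cort-/- CL and 17.1, 15.1, 13.9, 23.5 and 17.5 in Cort-/- MCAO. Lcat, which esterifies cholesterol in lipoproteins, rose by 0.47 (0.23 to 0.70, limma adjusted p = 0.0308).

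Of 12 fatty acid synthesis genes, 1 rose averaged over genotypes, where 3.43% of all genes were called. It was Me1, a source of NADPH, at 0.14 (0.073 to 0.21, limma adjusted p = 0.0295). The calls of Lcat and Me1 were lost without 1 of several libraries, at adjusted p-values of up to 0.0881 for Lcat and 0.0745 for Me1. Neuronal markers summed to 1994 to 2413 RPKM in Cort+/+ CL, 1786 to 2078 in Cort+/+ MCAO, 2022 to 2140 in Cort-/- CL and 1799 to 1942 in Cort-/- MCAO, and 0 of 8 passed the test. Their part in the fall of Cyp46a1 was not tested. Of the other marker lists, 0 of 5 oligodendrocyte precursor, 0 of 5 infiltrating leukocyte and 0 of 4 choroid plexus genes were called. Averaged over genotypes, 2 of 5 endothelial genes (Cldn5 and Cdh5) rose, where 3.43% of all genes were called.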
